A study of Mus musculus with 9 samples.

Results

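The pentose phosphate pathway and its companions in NADPH supply were followed here through 8 enzymes measured by RNA sequencing of whole mouse liver. They are the oxidative enzymes Pgls and Pgd, the non-oxidative enzymes Rpia, Rpe, Tkt and Taldo1, and the NADPH sources Me1 and H6pd. They were chosen by name as the rows for these enzymes among 24421 gene symbols. No threshold on the values was used, but earlier results of these data were known. All 8 were present and all 8 passed the filter on low counts, among 14104 genes tested. The libraries came from C57BL/6J mice aged 5 weeks that had been without food for 6 h. There were 5 wild-type control littermates (WT) and 4 mice deficient in OGT (OGT_KO), the enzyme that attaches N-acetylglucosamine to nuclear and cytoplasmic proteins. The labels describe the second group as OGT-deficient liver. The sources used here do not give how the deletion was made, the cells it reached, or the litter and sex of each animal. As many mice as libraries are stated for each group, so each library was read as 1 mouse.

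The oxidative branch turns glucose 6-phosphate into ribulose 5-phosphate and passes electrons to NADP+ at 2 of its steps. The non-oxidative branch then interconverts sugar phosphates, reversibly, so that ribose 5-phosphate can go to nucleotides or carbon can return to glycolysis. In liver the resulting NADPH is spent on fatty acid and sterol synthesis, on reducing glutathione and thioredoxin, and on cytochrome P450 reactions. Malic enzyme makes cytosolic NADPH from malate, and hexose-6-phosphate dehydrogenase makes it inside the endoplasmic reticulum.

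Within both branches, enzymes of adjoining or parallel steps moved in opposite directions in OGT_KO liver. Pgd mRNA was 3.33 times the WT level, while Pgls, which acts just before it, was 1.95 times lower. Rpia and Tkt rose by 0.96 and 0.63 on the log2 scale, and Rpe and Taldo1 fell by 0.58 and 0.63. Me1 and H6pd did not pass the test. In all, 3 of the 8 enzymes were called higher and 3 lower by the quasi-likelihood test of edgeR, at an adjusted p under 0.05. Across all tested genes 61.1% were called, 31.6% higher and 29.4% lower, so 6 calls among 8 genes is close to the background. For 6 of the 8, no OGT_KO library lay within the WT range, against 51.3% of all tested genes, 26.2% wholly higher and 25.0% wholly lower. The median absolute log2 fold change of the 8 was 0.63, and of all tested genes 0.45.

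**Figure D1:**
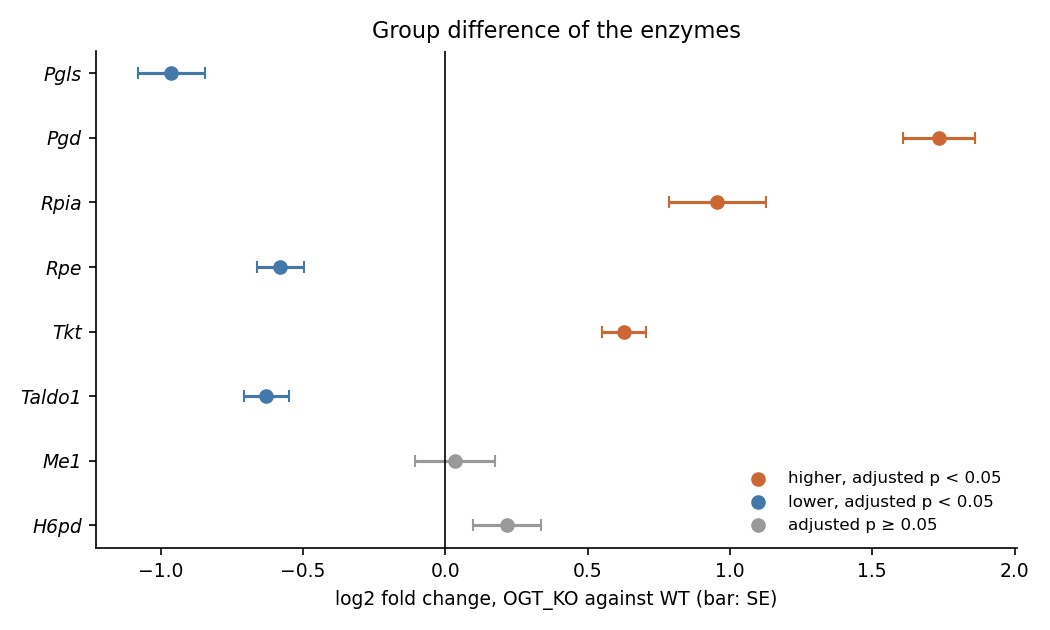
Log2 fold change of each enzyme in OGT_KO (n = 4) against WT (n = 5) liver, with bars for the standard error; the x axis is on the log2 scale. Orange and blue points passed the test upward and downward and grey points did not. Pgd lies farthest to the right at 1.73 and Pgls farthest to the left at -0.96.

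The sequences just before the start sites of the largest risers and fallers are shown for orientation, since these enzymes changed in opposite directions within a single pathway. RefSeq (GRCm38.p6) gave start windows for all 8 enzymes, 10 windows in all because Pgd and Me1 each had a second start site. The Pgd sequence is chr4:149166772-149166955 on the minus strand and the Rpia sequence chr6:70792233-70792425 on the minus strand. The Pgls sequence is chr8:71591934-71592175 and the Taldo1 sequence chr7:141391910-141392159, both on the plus strand. Each lies before the annotated first exon and reads 5′ to 3′ along the gene. Stretches shorter than 250 bases were cut where an annotated exon begins. Capitals mark the GC box GGGCGG, the CCAAT box CCAAT and the E-box variant CAGGTG on either strand, and no marked matches overlap.
Pgd: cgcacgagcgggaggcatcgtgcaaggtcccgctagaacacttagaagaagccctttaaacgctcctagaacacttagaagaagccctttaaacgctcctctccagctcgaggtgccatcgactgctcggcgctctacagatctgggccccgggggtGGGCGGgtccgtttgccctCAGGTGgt
Rpia: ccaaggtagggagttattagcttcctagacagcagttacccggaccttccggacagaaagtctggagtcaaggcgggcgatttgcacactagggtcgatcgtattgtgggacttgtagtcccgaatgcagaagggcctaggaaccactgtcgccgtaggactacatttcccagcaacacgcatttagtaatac
Pgls: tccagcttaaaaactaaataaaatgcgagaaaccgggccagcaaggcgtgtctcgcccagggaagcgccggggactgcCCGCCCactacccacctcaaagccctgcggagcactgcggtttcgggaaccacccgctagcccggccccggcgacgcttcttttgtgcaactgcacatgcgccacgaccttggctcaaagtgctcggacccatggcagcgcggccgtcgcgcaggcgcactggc
Taldo1: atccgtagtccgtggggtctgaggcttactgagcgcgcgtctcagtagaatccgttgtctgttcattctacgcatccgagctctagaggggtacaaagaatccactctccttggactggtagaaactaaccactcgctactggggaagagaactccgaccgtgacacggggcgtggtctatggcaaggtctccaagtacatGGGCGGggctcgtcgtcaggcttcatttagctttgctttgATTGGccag

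The Pgd sequence holds a direct repeat of 33 bases, the first copy starting at base 33 and the second at base 66 of the stretch shown. In the other 3 sequences the longest direct repeat was 6 bases in Rpia and 7 in Pgls and Taldo1. Motifs were counted over the full windows of 250 bases before the RefSeq start, exonic bases included. A GC box was found in 7 of the 10 windows of these enzymes and in 32.7% of 32851 windows of all genes. The windows of all genes had medians of 6 CpG and 52.4% GC. Those of these enzymes ran from 2 to 25 CpG and from 38.8 to 72.0% GC. By the GENCODE gene spans given below, the H6pd and Tkt windows and a window each of Me1 and Pgd lie inside the gene. Both low ends come from such windows, 2 CpG from Me1 and 38.8% GC from H6pd. The comparison was not matched for base composition. A CCAAT box was found in 4 of 10, against 33.8% of all windows. The GC box counted for Rpia and the CCAAT box counted for Pgd lie in the bases not shown. The core of the antioxidant response element that NRF2 binds, TGACNNNGC, occurred in 0 of 10, against 10.2% of all windows. Its relaxed form TGANNNNGC occurred in 2 of 10, those of Taldo1 and Tkt, against 35.2% of all windows. In so few windows a count of 0 shows little. The E-box CACGTG and the sterol regulatory element TCACNCCAC occurred in 0 of 10, against 6.02% and 1.05% of all windows. The E-box variant CAGGTG occurred in 3 of 10, against 17.2% of all windows. Every match is a description of these letters only.

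Total gene counts ranged from 32337861 to 54130901 in WT and from 36323832 to 45102080 in OGT_KO libraries, and their difference between groups did not pass a test (two-sided exact permutation test, p = 0.508, adjusted over 3 library measures 0.508). The number of genes with a count above 0 was higher in OGT_KO, 16411 to 16855 against 15349 to 15987, and reads with several alignments were fewer; both passed the same exact permutation test (p = 0.0159, the smallest it can give, adjusted 0.0238). The 8 enzymes had between 143 and 38684 reads in a library. Ogt itself fell from 61.6 ± 10.4 CPM (reads per 1e6 counted reads, scaled by library; n = 5, SD) to 16.9 ± 2.70 CPM (n = 4, SD), as the labels require. The design text states that both sexes were used, while the Y-linked gene Ddx3y measured 55.4 to 91.1 CPM in all 9 libraries and Xist, the RNA of the inactive X, at most 1.13 CPM. No library thus had the pattern of a female liver. Hepatocyte markers fell for 8 of 9 tested genes, with a summed level of 99840 to 122500 CPM in WT and 48140 to 62515 CPM in OGT_KO. All 9 tested bile duct markers, 9 of 10 stellate cell markers, 8 of 10 recruited macrophage markers and all 8 dividing cell markers rose. Their summed levels went from 32.7 to 62.0 CPM up to 157 to 280 CPM for bile duct, and from 176 to 412 CPM up to 885 to 1259 CPM for stellate cells. For recruited macrophages they went from 116 to 153 CPM up to 306 to 399 CPM, and for dividing cells from 10.1 to 41.0 CPM up to 83.4 to 118 CPM. Spp1 is on both the bile duct and the macrophage list and rose from 34.5 ± 9.85 to 157 ± 32.8 CPM. Without it the bile duct sum was 8.50 to 12.8 CPM in WT and 44.0 to 109.5 CPM in OGT_KO. Without Spp1 and Cd9 the macrophage sums overlapped, at 74.2 to 96.9 and 84.2 to 135 CPM, and Lyz2, the most abundant macrophage marker in WT, did not pass the test. These shifts moved with every difference given here, and their part in them was not tested. In whole liver, fewer cells of a type and less RNA per cell cannot be told apart.

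**Figure D2:**
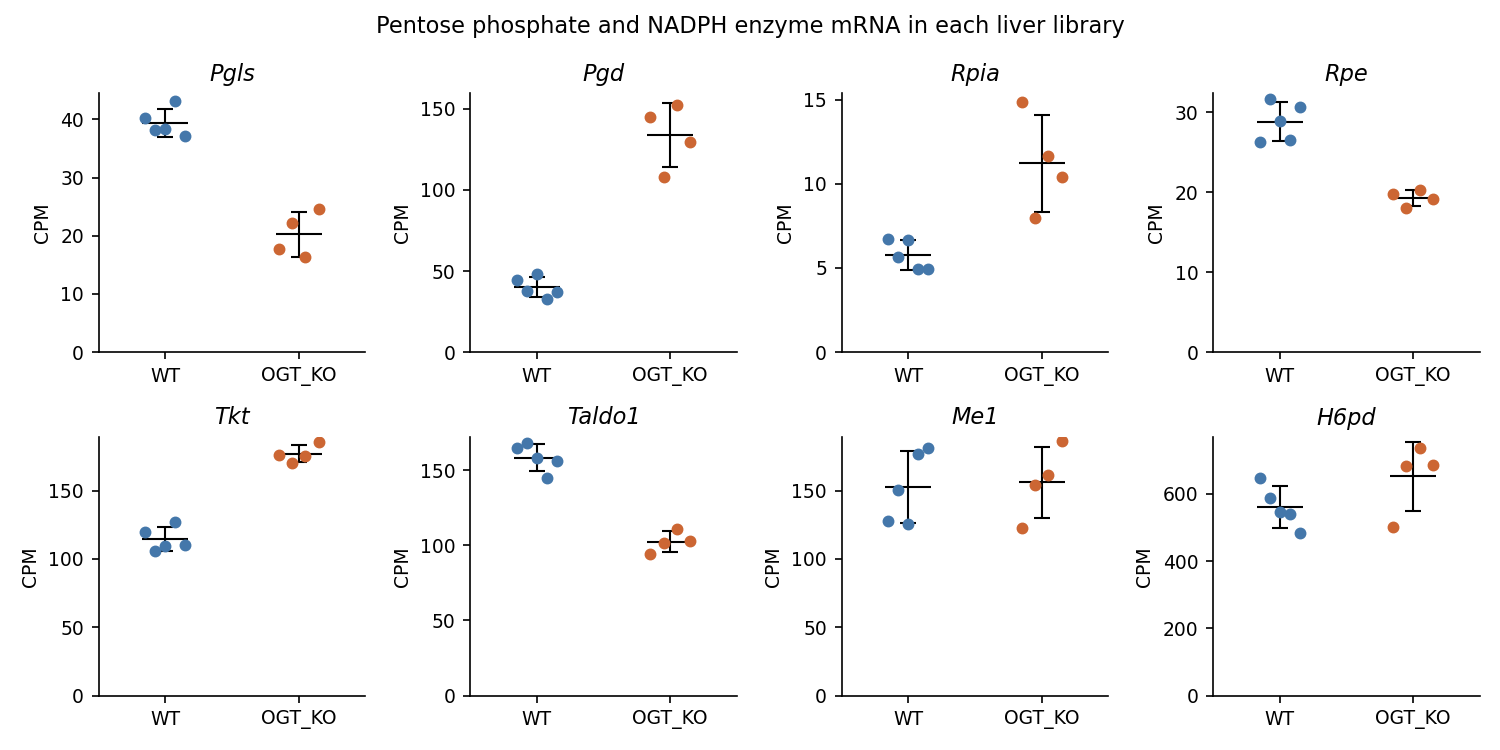
Level of each enzyme in CPM (y axis, from 0) in every library, with WT on the left (n = 5) and OGT_KO on the right (n = 4); bars show the mean and SD. Pgd, Rpia and Tkt lie wholly higher and Pgls, Rpe and Taldo1 wholly lower in OGT_KO, while Me1 and H6pd overlap.

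In the oxidative branch, Pgls encodes 6-phosphogluconolactonase, which opens a sugar lactone to 6-phosphogluconate. It measured 40.2, 38.2, 38.3, 43.1 and 37.1 CPM across WT 1 to 5 and 17.6, 22.2, 16.4 and 24.7 CPM across OGT_KO 1 to 4. Every OGT_KO library lay below every WT library, with OGT_KO 4 nearest to them. The mean fell from 39.4 ± 2.35 to 20.2 ± 3.86 CPM (log2 change -0.96 with SE 0.12, edgeR adjusted p = 1.66e-05). The gene lies on chromosome 8 (71592176 to 71601092, plus strand), where 20.6% of its exonic bases are shared with Fam129c on the same strand. Fam129c itself did not exceed 0.954 CPM in any library.

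Pgd encodes 6-phosphogluconate dehydrogenase, the last oxidative step and the second to yield NADPH. It measured 44.6, 37.9, 48.2, 33.1 and 37.3 CPM across WT 1 to 5 and 145, 108, 152 and 129.8 CPM across OGT_KO 1 to 4. The lowest OGT_KO library exceeded the highest WT library by a wide margin. The mean rose from 40.2 ± 6.10 to 134 ± 19.6 CPM (log2 change 1.73 with SE 0.13, edgeR adjusted p = 2.67e-07). In absolute size this log2 fold change exceeded those of 90.3% of tested genes. The gene is on chromosome 4 (149149991 to 149166771, minus strand), and no other gene covers its exons.

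The non-oxidative branch begins where ribulose 5-phosphate is converted either to ribose 5-phosphate, by the isomerase Rpia, or to xylulose 5-phosphate, by the epimerase Rpe. Rpia measured 6.71, 5.65, 6.65, 4.96 and 4.92 CPM across WT 1 to 5 and 14.9, 7.94, 11.7 and 10.4 CPM across OGT_KO 1 to 4. The groups did not overlap, though OGT_KO 2 lay close to the upper WT libraries. Its mean rose from 5.78 ± 0.873 to 11.2 ± 2.88 CPM (log2 change 0.96 with SE 0.17, edgeR adjusted p = 0.000388). It is the member with the widest relative spread among OGT_KO libraries, with a coefficient of variation of 25.6%. Rpia lies on chromosome 6 (70765720 to 70792232, minus strand), and 5.56% of its 50-base stretches recur in other transcripts.

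Rpe went the other way, at 26.3, 31.7, 28.9, 26.5 and 30.7 CPM across WT 1 to 5 and 19.8, 18.0, 20.2 and 19.1 CPM across OGT_KO 1 to 4. The groups were separate and the OGT_KO values were tight. The mean fell from 28.8 ± 2.41 to 19.3 ± 0.984 CPM (log2 change -0.58 with SE 0.08, edgeR adjusted p = 6.92e-05). Rpe lies on chromosome 1 (66700831 to 66719805, plus strand), and Kansl1l on the opposite strand covers 17.9% of its exonic bases. Kansl1l also fell, from 12.1 ± 0.680 to 9.91 ± 1.21 CPM (log2 fold change -0.29, adjusted p = 0.0275 in edgeR). The strand setting of the counting is not given, and the effect of this overlap on the Rpe value was not tested.

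Tkt and Taldo1 encode transketolase and transaldolase, which move carbon units between the sugar phosphates and link the pathway to glycolysis. Tkt measured 119, 106, 109, 127 and 109.8 CPM across WT 1 to 5 and 176, 170.1, 176 and 185 CPM across OGT_KO 1 to 4. The OGT_KO libraries formed a narrow cluster above all WT libraries. Its mean rose from 114 ± 8.74 to 177 ± 6.23 CPM (log2 change 0.63 with SE 0.08, edgeR adjusted p = 1.82e-05). Tkt lies on chromosome 14 (30548359 to 30574720, plus strand).

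Taldo1 measured 165, 168, 158, 145 and 156 CPM across WT 1 to 5 and 94.2, 102, 111 and 103 CPM across OGT_KO 1 to 4. All OGT_KO libraries were below all WT libraries. The mean fell from 158 ± 9.05 to 102 ± 6.77 CPM (log2 change -0.63 with SE 0.08, edgeR adjusted p = 2.04e-05). Tkt and Taldo1 therefore changed by nearly equal log2 amounts in opposite directions. Taldo1 lies on chromosome 7 (141392199 to 141402968, plus strand), and 10.9% of its 50-base stretches recur in the transcript of Gm17823, which is not among the counted symbols.

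Of the NADPH enzymes outside the cytosolic pentose phosphate pathway, Me1 encodes cytosolic malic enzyme. It measured 128, 150.2, 125.8, 177 and 181 CPM across WT 1 to 5 and 123, 154, 161 and 186 CPM across OGT_KO 1 to 4. The groups covered nearly the same range. The means were 152 ± 26.2 and 156 ± 26.1 CPM (log2 change 0.03 with SE 0.14, edgeR adjusted p = 0.846), which does not show that the level was the same. Me1 lies on chromosome 9 (86581371 to 86695953, minus strand), and 32.8% of its 50-base stretches recur in transcripts of other genes, all outside the counted symbols. Reads with several possible alignments were not counted. They were fewer in OGT_KO, 7997176 to 9317390 against 16167401 to 35276937 in WT libraries, and their part in the Me1 value was not tested.

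H6pd encodes the endoplasmic reticulum enzyme that combines the first pair of oxidative steps. It measured 647, 588, 546, 539 and 483 CPM across WT 1 to 5 and 500.5, 683, 737 and 685 CPM across OGT_KO 1 to 4. OGT_KO 1 lay among the WT libraries and the other 3 lay above all of them. The means were 561 ± 61.0 and 651 ± 104 CPM (log2 change 0.22 with SE 0.12, edgeR adjusted p = 0.138). Without OGT_KO 1 the log2 fold change was 0.31 and passed the test (adjusted p = 0.0212), and with upper-quartile scaling it was 0.34 (adjusted p = 0.0254). H6pd lies on chromosome 4 (149979475 to 150009023, minus strand), and its exons and 50-base stretches are shared with no other gene.

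The opposite moves can also be given as ratios within a library, taken on CPM per kb of exon and described without a test. The ratio of Pgd to Pgls was 0.448 to 0.736 in WT and 2.86 to 5.43 in OGT_KO libraries, so that the lower of these mRNAs in WT became the higher. The ratio of Tkt to Taldo1 was 0.214 ± 0.0272 (SD, n = 5) in WT and 0.511 ± 0.0375 (SD, n = 4) in OGT_KO. That of Rpia to Rpe was 0.117 ± 0.0227 in WT and 0.336 ± 0.0744 in OGT_KO. Each ratio set an enzyme wholly higher in OGT_KO over an enzyme wholly lower. Every OGT_KO library therefore had to exceed every WT library in all 3 ratios, which adds no support. A ratio shows unequal change and does not depend on the scaling between libraries.

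**Figure D3:**
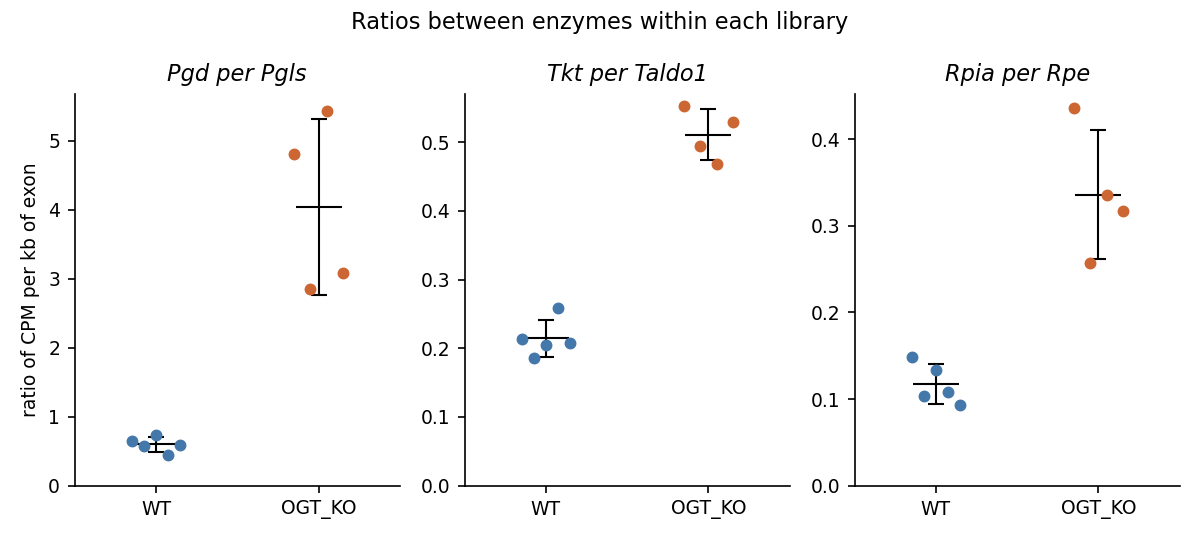
Ratio of CPM per kb of exon (y axis, from 0) between pairs of enzymes in each library, with bars for the mean and SD; WT n = 5, OGT_KO n = 4. The groups are separate in all 3 panels, as the choice of pairs requires. Pgd per Pgls was 0.600 ± 0.106 in WT and 4.04 ± 1.27 in OGT_KO.

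Per kb of exon the 8 mRNAs covered a wide span of levels. In WT the order from high to low was H6pd at 107 ± 11.6 CPM per kb, Taldo1 at 72.9 ± 4.17, Me1 at 39.6 ± 6.81, Tkt at 15.5 ± 1.19, Pgls at 10.4 ± 0.623, Rpe at 9.26 ± 0.773, Pgd at 6.24 ± 0.946 and Rpia at 1.08 ± 0.163. Neighbours in this order had separate ranges except Pgls and Rpe. In OGT_KO the order kept H6pd, Taldo1, Me1 and Tkt at the top and Rpia at the bottom. Pgd moved from the seventh to the fifth place, at 20.8 ± 3.03 CPM per kb, and Pgls went to the seventh at 5.36 ± 1.02, or to the sixth, above Rpe, by the length of the longest transcript. In OGT_KO, Taldo1 overlapped with Me1, Tkt with Pgd, and Rpe with Pgls.

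**Figure D4:**
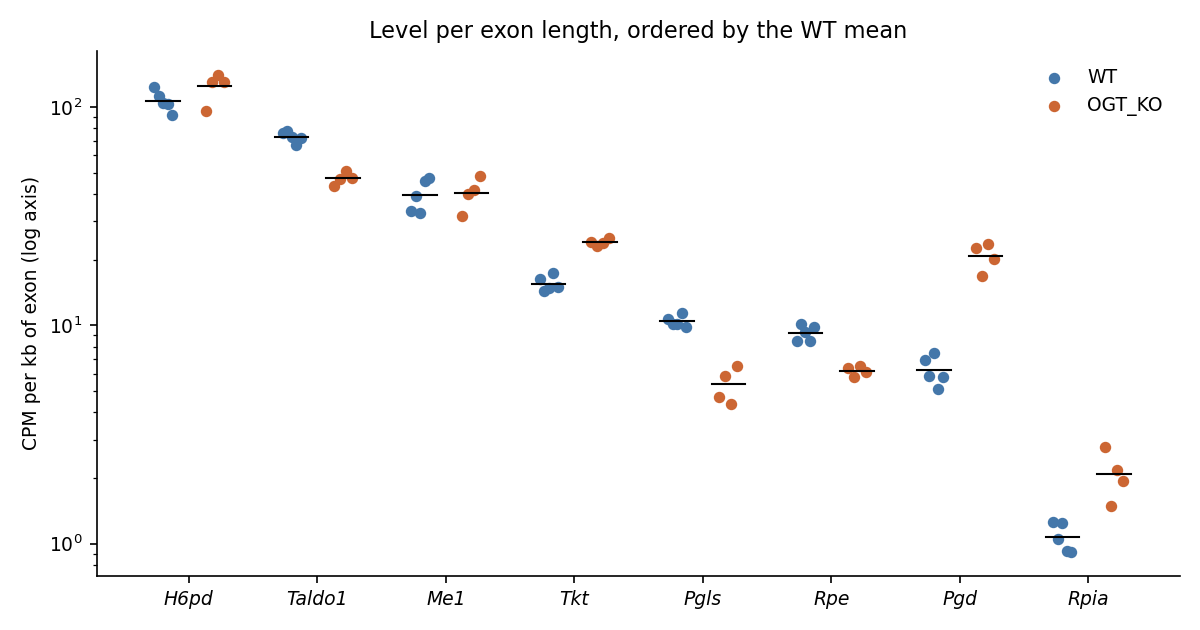
Level of each enzyme in CPM per kb of exon (log y axis), ordered by the WT mean, with a point for each library and a line at the group mean (WT n = 5, OGT_KO n = 4). H6pd and Taldo1 lead in both groups and Rpia is lowest at 1.08 in WT and 2.09 in OGT_KO.

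Among OGT_KO libraries, OGT_KO 1 and 3 had the highest Pgd and Rpia values and the lowest Pgls values, while OGT_KO 2 was lowest for Pgd, Rpia, Rpe and Tkt. OGT_KO 1 was lowest for Taldo1, Me1 and H6pd. In WT, libraries 1 and 3 led both Pgd and Rpia. With 4 and 5 libraries in the groups these orders are descriptions only.

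Among close relatives of these enzymes, the transketolase-like genes Tktl1 and Tktl2 were listed at 0 in all libraries, where 3 counts correspond to 0.0572 to 0.104 CPM. The hepatocyte gene Ass1 had at most 12 counts in these tables, so a listed 0 may not measure absence. Me3, a mitochondrial malic enzyme, did not pass the filter, at 0.106 ± 0.145 CPM in WT and 0.0973 ± 0.0747 CPM in OGT_KO. Me2, the other mitochondrial malic enzyme, rose from 4.39 ± 0.603 to 11.3 ± 1.25 CPM (log2 change 1.36 with SE 0.13, edgeR adjusted p = 2.09e-06).

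Over 9 lists of related genes the called genes ran from 8 of 16 to 6 of 7, around the 61.1% of all tested genes, and each count below is to be read against 31.6% higher and 29.4% lower overall. Of 9 tested side enzymes that feed or drain pentose phosphates, 6 fell and 1 rose. Their median log2 change was -0.45, against 0.02 for all tested genes. Shpk, which makes sedoheptulose 7-phosphate, fell from 76.8 ± 5.80 to 38.5 ± 4.78 CPM, and Dera, a deoxyribose-phosphate aldolase, fell from 76.5 ± 5.94 to 44.5 ± 2.1 CPM. The ribokinase gene Rbks fell by 0.66 on the log2 scale. Prps1, which makes PRPP from ribose 5-phosphate, fell by 0.61, and its relative Prps2, chosen after its values were seen as the only riser, rose by 0.40. Among 16 genes of nucleotide synthesis 6 rose and 5 fell, with Cad and Ctps2 higher by 1.06 and 1.21 and Paics and Impdh2 lower by log2 fold changes of -1.28 and -1.63.

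Of 12 tested genes listed around NADPH supply, folate enzymes and NAD kinases among them, 5 rose and 3 fell, or 66.7% called. Not every enzyme on this list makes NADPH, so the counts do not measure its supply. Mthfd2, of the mitochondrial folate cycle, rose from 1.43 ± 0.253 to 6.84 ± 0.217 CPM, and the mitochondrial isocitrate dehydrogenase gene Idh2 rose from 124 ± 17.0 to 212 ± 21.4 CPM. The cytosolic folate enzyme gene Mthfd1 fell from 271 ± 22.6 to 179 ± 11.7 CPM. Among genes of the glutathione and thioredoxin systems, most of them not direct users of NADPH, 5 of 17 rose and 6 fell. The glutathione reductase gene Gsr rose from 62.1 ± 2.95 to 112 ± 13.7 CPM and the sulfiredoxin gene Srxn1 by 2.61 on the log2 scale, while Txnrd3 fell by 1.74. Gpx2 was listed at 0 in all WT libraries and averaged 4.12 ± 1.83 CPM in OGT_KO.

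Of 15 NRF2 regulators and classic targets 8 rose and 1 fell, or 60.0% called, close to the share over all tested genes. Their median log2 change was 0.28, against 0.02 for all tested genes. Nqo1, a quinone reductase gene, rose from 4.63 ± 1.60 to 23.4 ± 8.56 CPM, and Cbr1, Cbr3 and Ephx1 rose by 1.57, 5.02 and 1.18 on the log2 scale. Cbr3 was low in WT, at 0.417 to 0.897 CPM, and spread widely in OGT_KO, from 9.52 to 36.5 CPM. Gclm, named here because it was the only faller, fell by 0.37 on the log2 scale. Of 14 lipogenic genes 7 rose and 5 fell. The carboxylase gene Acaca rose from 157 ± 15.5 to 281 ± 17.0 CPM, whereas the regulator gene Srebf1 fell from 325 ± 75.7 to 138 ± 11.0 CPM. Of 16 sterol synthesis genes 2 rose and 6 fell, and Msmo1 was among those that fell, with a log2 change of -1.34.

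Around glucose 6-phosphate, the sugar that enters the pathway, 8 of 19 tested genes rose and 6 fell. Gpi1, the isomerase that takes it to fructose 6-phosphate, rose from 270.5 ± 25.8 to 553 ± 95.7 CPM, and Gckr, the glucokinase regulator, fell from 165 ± 15.9 to 80.6 ± 12.2 CPM. Among 7 genes linked to H6pd in the endoplasmic reticulum 3 rose and 3 fell. Hsd11b1, the corticosteroid reductase that uses the NADPH of H6pd, fell from 669 ± 98.3 to 134 ± 19.3 CPM (log2 change -2.33 with SE 0.13, edgeR adjusted p = 4.55e-08). Slc37a4, the transporter that brings glucose 6-phosphate into the endoplasmic reticulum, fell from 298 ± 34.3 to 158 ± 36.2 CPM. Slc37a2 and Ero1lb rose, by 1.12 and 0.58 on the log2 scale. H6pd itself did not pass the test, as given above, and the difference between its change and theirs was not tested.

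**Figure D5:**
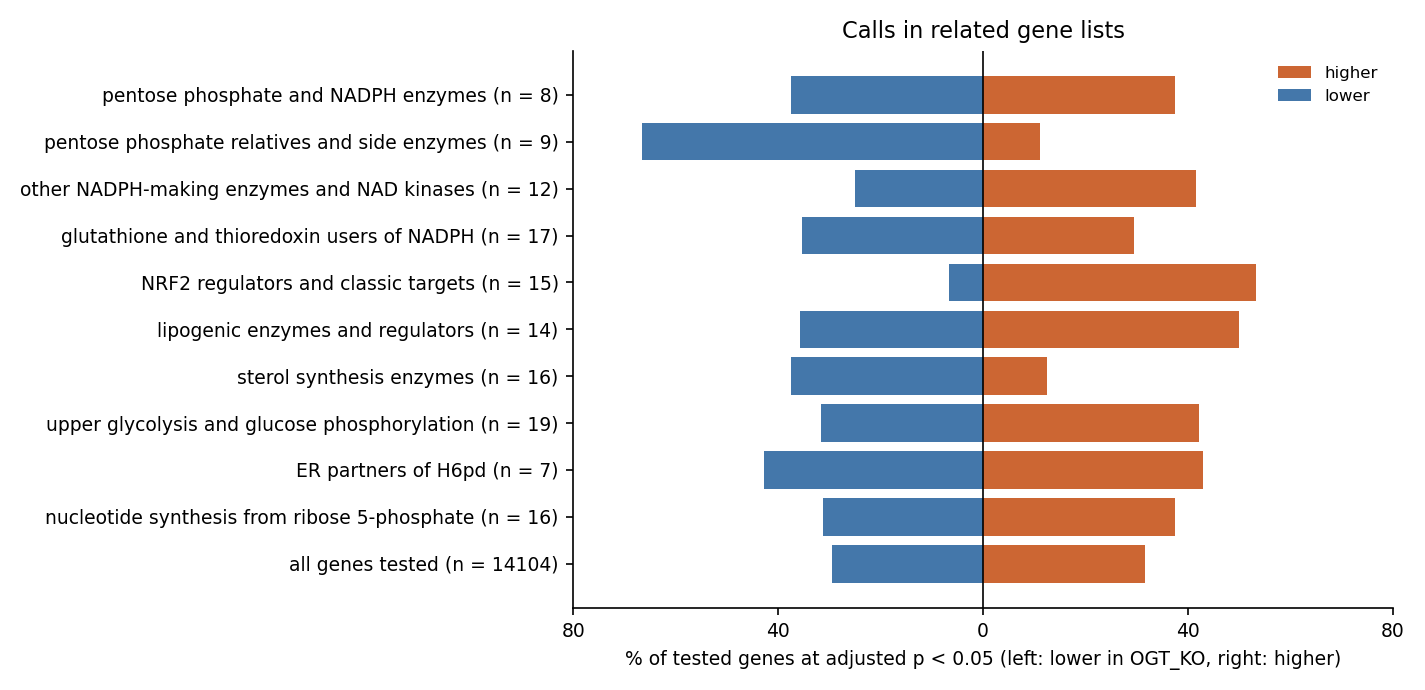
Share of tested genes (x axis, percent) called higher (right, orange) or lower (left, blue) in OGT_KO at an adjusted p under 0.05, for the 8 enzymes, 9 related lists and all 14104 tested genes. Pentose phosphate side enzymes lie mostly to the left, with 6 of 9 lower, and NRF2 genes mostly to the right, with 8 of 15 higher.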

How the data were processed

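Whole-liver RNA from 5 WT and 4 OGT_KO mice was sequenced. The submitters' processing notes name the aligner TopHat2 (2.1.0), the counter HTSeq (0.9.1) and the build mm10 (GRCm38). The authors deposited unnormalized read counts for 24421 gene symbols per library, plus 5 summary lines, which stayed out of all totals. Annotation release and strand setting are not given in the sources used. Reads outside genes made up 8.95 to 10.7% of uniquely placed reads, and reads over several genes 1.78 to 2.17%.

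Groups came from the sample titles. After filterByExpr and TMM scaling, edgeR 4.0.16 in R 4.3.3 tested the groups by its quasi-likelihood F test, with p adjusted by Benjamini-Hochberg over 14104 genes at a threshold of 0.05. The standard error is the fold change divided by the square root of F. CPM uses TMM-scaled totals. Chi-square per degree of freedom between libraries of a group was 23.9 to 135 over 16 pairs, so none was treated as a duplicate. Coordinates, exon lengths and shared 50-base stretches came from GENCODE M21 (GRCm38), and start windows from RefSeq, searched for 11 motifs. Of 9 enzymes in the set 1 is not reported here, nor is 1 gene of a related list. Named genes were the other 8 enzymes, their relatives, and up to 4 genes with the smallest p in each related list; some are given only as counts. The members, lists and motifs were chosen with earlier results of these data known. The alternatives used DESeq2 1.42.0 size factors or upper-quartile scaling, other filters, the DESeq2 Wald test, limma 3.58.1 voom, replicate numbers as a block, each library left out, and transcript length. On simulated counts edgeR and voom kept false calls near the threshold. In that simulation few genes changed, equally often up and down, and the spreads came from edgeR's own estimates. These data differ, with 61.1% of tested genes called, so the simulation does not vouch for the calls made here. The DESeq2 Wald test made more false calls there than its threshold allows, so its calls carry less weight. Permutation tests used scipy 1.17.1, whose smallest p here is 0.0159.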

Additional observations from a re-analysis of the deposited data

Results flagged for a closer look

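None of the 8 enzymes had a library set apart from the rest of its group, but 6 groups of related genes did, each with a single library far from the others; chance alone flags about 5% of groups, or 4.45 of the 89 checked. Rbks was low in WT 1, at 12.8 CPM against 16.0 to 16.8 in the other WT libraries. Rbks was also high in OGT_KO 4, at 11.4 CPM against 9.24 to 9.45. Mthfd2 was high in WT 1, at 1.88 CPM against 1.25 to 1.37. Cbr1 was high in WT 2, at 91.3 CPM against 67.8 to 72.1. Hsd11b1 was high in the same library, at 844 CPM against 613 to 631. Pfkm was high in OGT_KO 3, at 17.0 CPM against 13.4 to 13.8.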

How the results depend on the processing

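Pgd, Pgls, Rpia, Rpe, Tkt and Taldo1 kept their direction and their call in all 16 alternatives. None of the 16 used plain library totals. The TMM factors ran from 0.880 to 0.915 in WT and from 1.09 to 1.22 in OGT_KO libraries. The size of each change therefore depends on such scaling. H6pd passed with upper-quartile factors at 0.34, and ranged from 0.15 to 0.31 when a library was left out. Me1 changed sign in 3 of the 9 fits that left out a library, at -0.0857 without OGT_KO 4, -0.0278 without WT 3 and -0.0229 without WT 1, ranged up to 0.12 and passed the test in none of the 16. With the replicate numbers as a block, 3 of the 8 were higher and 3 lower, and the block changed no call among them. No sign was found that the numbers pair the libraries. Deviations of same-numbered libraries correlated at -0.12 to 0.14, and 1 of 4 OGT_KO libraries correlated best with its own number. With so few libraries this check cannot exclude a pairing by litter or batch. The cause of these changes was not tested.

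Upper-quartile factors raised the median log2 change over all tested genes from 0.02 to 0.14, and the share of higher calls from 51.8% to 62.5%, and changes should be read relative to that shift. The enzymes called lower stayed lower there. Length of the longest transcript in place of all exons moved these levels, in CPM per kb: Me1 to 47.4 in OGT_KO, Pgls to 14.7 in WT and 7.52 in OGT_KO, Pgd to 11.0 and 36.7, Rpia to 1.59 and 3.08, Rpe to 10.6 and 7.08, Tkt to 35.5 and 54.8, and Taldo1 to 116 and 75.2. Pgd then stood above Rpe in WT, and Tkt above Me1 and Pgls above Rpe in OGT_KO. The smallest member count, 143 reads, has a counting error of 8.36%. Counting error came to between 3.73% and 67.1% of the coefficient of variation within a group, most for Rpe in OGT_KO, where it was 3.42% against 5.10%.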
